A study of Homo sapiens with 8 samples.

Results

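AGPAT9, the older name of GPAT3, encodes a glycerol-3-phosphate acyltransferase and was described here together with 8 other genes of glycerolipid synthesis, AGPAT6 (now GPAT4), GPAM, AGPAT1, AGPAT2, AGPAT3, AGPAT5, LPIN1 and DGAT1. The 9 genes were taken by name from a table of 25945 genes. AGPAT9 was chosen by its measured log2 fold change between BARD1 siRNA and control siRNA in these same libraries, and the other 8 were named with it with those results known. Their differences between the siRNAs are therefore given as a description, with no p-value. RNA came from MiaPaCa-2 cells, a long-established line from a human pancreatic carcinoma, harvested 48 h after they received a control siRNA (SCR) in 4 libraries, labelled wild type, or an siRNA against BARD1 in 4 libraries, labelled as knockdown. Both groups are the same line and both received an siRNA. The libraries carry numbers 1 to 4 in each group, and the labels do not say whether each is its own culture. All p-values below therefore refer to the spread among these libraries, which may be technical. Each group rests on 1 siRNA label, whose sequence the sources used here do not give. Loss of BARD1 and any other effect of the BARD1 siRNA on transcripts therefore cannot be told apart.

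Glycerolipid synthesis begins when a glycerol-3-phosphate acyltransferase joins a fatty acid, activated as acyl-CoA, to glycerol 3-phosphate and makes lysophosphatidic acid. The enzymes for this step are encoded by AGPAT9 and AGPAT6 in the endoplasmic reticulum and by GPAM in the outer mitochondrial membrane. An acylglycerolphosphate acyltransferase then makes phosphatidic acid, which lipins turn into diacylglycerol. DGAT1 or DGAT2 adds the last fatty acid to form triacylglycerol, the store in lipid droplets, while other branches lead to membrane phospholipids. In mouse cells Gpat3 is known for its induction as preadipocytes become adipocytes.

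AGPAT9 (ENSG00000138678, GRCh37 chromosome 4, 84457067 to 84527028, plus strand) was the most abundant of the 9 transcripts per length in control cells and was 2.82-fold lower with BARD1 siRNA. None of the other 8 members differed by as much: their log2 fold changes lay between -0.26 and 0.08, against -1.49 (SE 0.11) for AGPAT9. Levels are given as TMM-scaled FPKM, that is, the read count divided by the gene length listed in the table and by the scaled size of the library. With control siRNA AGPAT9 was at 90.6, 89.5, 92.6 and 67.9 FPKM in libraries 1 to 4. With BARD1 siRNA it was at 28.9, 30.8, 31.1 and 30.1 FPKM. The groups lay far apart, the lowest control library being the one numbered 4, and the libraries given BARD1 siRNA were close to one another. The means were 85.2 ± 11.6 FPKM and 30.2 ± 0.955 FPKM (SD, n = 4 each). These values rest on 2341 to 7757 reads per library. No other gene listed in the table overlaps AGPAT9. For AGPAT9 the log2 fold change in the authors' deposited table is -1.39.

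**Figure D1:**
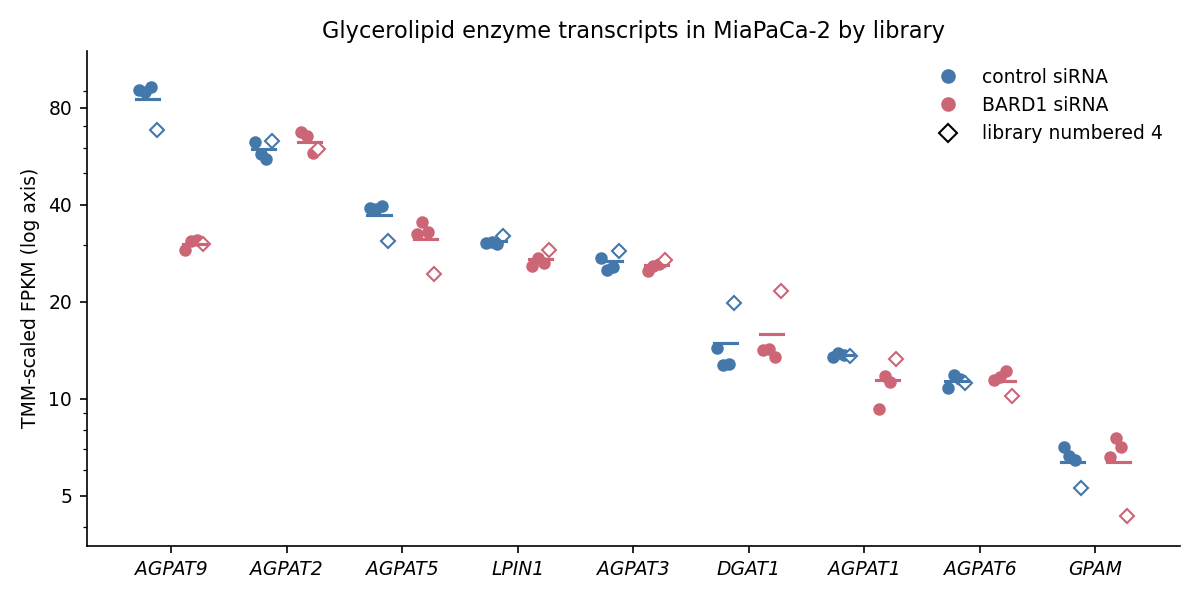
Level of each of the 9 transcripts in each library (TMM-scaled FPKM, log axis), ordered by the control mean. Points are libraries, open diamonds those numbered 4, and short lines group means. AGPAT9 moves from first place at 85.2 FPKM to 30.2 FPKM. AGPAT1, AGPAT5 and LPIN1 stand at 83.7%, 84.5% and 88.1% of their control means, and the other genes lie closer to theirs.

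By size of the fall AGPAT9 stood 27th among 14528 genes tested and 13th among 9748 protein-coding genes with a mean of at least 5 CPM (read counts scaled to library size but not to gene length). Of the 9 members, 1 was called lower and 0 higher (edgeR, adjusted p under 0.05 over all genes). Over all genes tested, 5.05% were called, 3.22% as lower and 1.82% as higher. With the replicate number as a block, 4 of 9 members were called lower, namely AGPAT9, AGPAT1, AGPAT5 and LPIN1, where 23.6% of all genes were called in either direction and 12.6% as lower. The groups' ranges did not overlap, with lower values under BARD1 siRNA, in AGPAT9, AGPAT1 and LPIN1, that is 3 of 9. This was so in 7.52% of all genes, and 13.0% had ranges apart in either direction. As the members were named from this comparison, nothing is read from these counts. The median log2 fold change of the 9 was -0.04, against 0.01 over all genes tested.

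The targeted gene and the makeup of the libraries were checked first. BARD1 was at 3.78 to 5.08 FPKM with control siRNA and 0.408 to 1.38 FPKM with BARD1 siRNA, and in the pair numbered 4 36.5% of the control level was left, against 8.02% to 13.3% in the other pairs. Both libraries numbered 4 stood apart, with 3.26% and 4.44% of reads from mitochondrial genes against 0.695% to 2.02% elsewhere. Total counts ran from 24458665 to 36212716 per library. The keratin genes KRT8, KRT18 and KRT19 were high in all libraries, KRT8 at 538 to 1167 FPKM, but the epithelial markers EPCAM and CDH1 were near 0, at no more than 0.0163 and 0.0258 FPKM, and VIM was at 612 to 766 FPKM. Summed fibroblast markers (4 of 4 with reads) reached 0.677 FPKM, adipocyte markers (2 of 5) 0.119 FPKM and acinar markers (1 of 4) 1.29 FPKM. Of 4 leukocyte markers 1, CD14, was listed with reads, at 2.30 to 8.29 FPKM with control siRNA and 1.03 to 9.96 FPKM with BARD1 siRNA, and the endothelial sum (2 of 3, nearly all from CDH5) was 0.868 to 1.26 FPKM and 1.64 to 2.48 FPKM. The part of these markers in the results below was not tested. In bulk RNA, fewer cells that express a gene and less RNA per cell cannot be told apart.

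Some sequences are shown early because they are shared by the genes that come up below. Earlier work on these data had picked out the octamer ATACAGAA in the 3′ UTRs of genes that were lower with BARD1 siRNA, so its presence here is not independent of the measured differences. As the siRNA sequence is not known here, the relation of the octamer to the siRNA could not be checked. The octamer and the heptamers within it, ATACAGA and TACAGAA, were searched on the transcript strand in GENCODE release 29 3′ UTRs (GRCh38), and sites within 1 octamer were not counted again. BARD1 itself held 1 heptamer site, and not all sites found are shown. The windows below have the match in capitals and 10 flanking bases on each side, 5′ to 3′. AGPAT9, LPIN1 and PPAP2B hold TACAGAA, DGKE holds ATACAGA and ZMPSTE24 holds the whole octamer. PPAP2B, unlike the others shown, was higher with BARD1 siRNA.
AGPAT9, chr4:83604875-83604881, plus strand: taatcttttcTACAGAAtgattgtctc
AGPAT9, chr4:83605825-83605831, plus strand: ggtaaccatgTACAGAAtgtgaaactg
LPIN1, chr2:11826023-11826029, plus strand: tctttaagccTACAGAAtgtgattctt
DGKE, chr17:56867212-56867218, plus strand: ccatcctctaATACAGAcgtttataaa
PPAP2B, chr1:56495193-56495199, minus strand: acatccttacTACAGAAtccgtccttt
ZMPSTE24, chr1:40292938-40292945, plus strand: atttggaaaaATACAGAActcgttttat

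Of the 9 members, 0 held the octamer and 3 held a heptamer, namely AGPAT9 with 2 sites and AGPAT5 and LPIN1 with 1 site each. Among 11994 tested protein-coding genes with an annotated 3′ UTR, 6.65% held the octamer and a further 19.4% only a heptamer. Genes with the octamer had a median log2 fold change of -0.14 and 17.0% of them were called lower, those with only a heptamer had -0.01 and 6.41%, and those with neither 0.02 and 1.92%. The first of these classes also had the longest 3′ UTRs, with a median of 3168 bases. The median was 2644.5 bases in genes with only a heptamer and 1009 bases in genes with neither. The longest 3′ UTR of AGPAT9, which held only heptamers, was 1108 bases. AGPAT6, GPAM, AGPAT1, AGPAT2, AGPAT3 and DGAT1 held none of these sites. The part of the sites in the differences was not tested.

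Among the enzymes for the first step, AGPAT9 was the main transcript in control cells and AGPAT6 and GPAM stayed close to their control levels. AGPAT6 (ENSG00000158669, GRCh37 chromosome 8, 41434706 to 41482520), for the other endoplasmic reticulum enzyme, was at 10.8, 11.8, 11.5 and 11.2 FPKM in control libraries 1 to 4 and at 11.4, 11.7, 12.2 and 10.2 FPKM in BARD1 siRNA libraries 1 to 4. The ranges overlapped widely (log2 fold change 0.01, SE 0.08). GPAM (ENSG00000119927, GRCh37 chromosome 10, 113909624 to 113975135), for the mitochondrial enzyme, was at 7.09, 6.63, 6.45 and 5.29 FPKM with control siRNA and at 6.58, 7.55, 7.07 and 4.32 FPKM with BARD1 siRNA. It was lowest in the libraries numbered 4 of both groups, and the groups overlapped (log2 fold change 0.00, SE 0.17). GPAT2, a further gene of this step that is no member, had at most 0.118 FPKM in any library and was not tested for want of reads.

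The summed level of AGPAT9, AGPAT6 and GPAM was 108, 108, 111 and 84.4 FPKM in control libraries 1 to 4 and 46.9, 50.0, 50.3 and 44.7 FPKM in BARD1 siRNA libraries 1 to 4. AGPAT9 made up 82.7% ± 1.5 of this sum with control siRNA and 63.1% ± 2.90 with BARD1 siRNA (SD, n = 4 each), so that it remained the largest of the 3 in every library. The share of AGPAT6 was 11.1% ± 1.46 and 23.7% ± 0.679, and that of GPAM 6.19% ± 0.290 and 13.2% ± 2.41. The levels of AGPAT6 and GPAM themselves hardly moved, as given above. Over all 9 members AGPAT9 made up 25.0% to 32.2% of the sum with control siRNA and 13.1% to 14.2% with BARD1 siRNA. The other 8 members summed to 200.3 ± 5.01 FPKM with control siRNA and 191.7 ± 5.08 FPKM with BARD1 siRNA, a difference close to the spread between libraries.

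**Figure D2:**
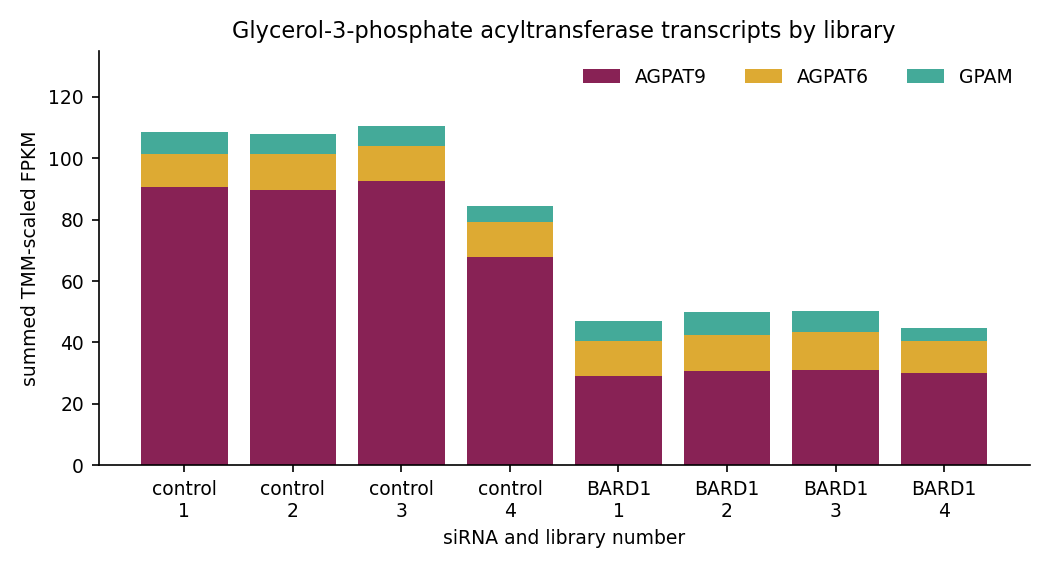
Summed level of the transcripts for glycerol-3-phosphate acyltransferases in each library (TMM-scaled FPKM), split into AGPAT9, AGPAT6 and GPAM. The sum runs from 84.4 to 111 FPKM with control siRNA and from 44.7 to 50.3 FPKM with BARD1 siRNA, and only the AGPAT9 part differs by more than the spread between libraries.

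The acyltransferases of the second step are encoded by AGPAT1 and AGPAT2, in the endoplasmic reticulum, and AGPAT3 and AGPAT5, and together they held most of the remaining reads. AGPAT2 (ENSG00000169692, GRCh37 chromosome 9, 139567595 to 139581875), the gene mutated in a form of congenital generalised lipodystrophy, was at 62.6, 57.6, 55.3 and 63.0 FPKM with control siRNA and 67.1, 65.1, 57.9 and 59.6 FPKM with BARD1 siRNA. The groups overlapped (log2 fold change 0.07, SE 0.08). AGPAT3 (ENSG00000160216, GRCh37 chromosome 21, 45285067 to 45406417) ran from 25.0 to 28.7 FPKM in the control libraries and from 24.9 to 27.0 FPKM with BARD1 siRNA, again with overlap (log2 fold change -0.04, SE 0.07). The summed level of the 4 genes was 136.9 ± 3.63 FPKM with control siRNA and 131.0 ± 6.04 FPKM with BARD1 siRNA.

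AGPAT1 and AGPAT5 were somewhat lower with BARD1 siRNA in each of the 4 pairs of equal number, without passing the test that had no block. AGPAT1 (ENSG00000204310, GRCh37 chromosome 6, 32135989 to 32145873) was at 13.5, 13.8, 13.7 and 13.5 FPKM with control siRNA and 9.29, 11.8, 11.3 and 13.3 FPKM with BARD1 siRNA. All 4 control libraries lay above all 4 others, but BARD1 siRNA library 4 was barely below them (log2 fold change -0.26, SE 0.11). AGPAT1 overlaps EGFL8 on the opposite strand, which had 73 and 431 reads under its 2 identifiers over the 8 libraries against 7326 for AGPAT1, and the sources used here do not say whether reads were counted by strand. AGPAT5 (ENSG00000155189, GRCh37 chromosome 8, 6565878 to 6617184), for a mitochondrial member of the family, was at 38.9, 38.7, 39.7 and 30.8 FPKM with control siRNA and 32.3, 35.4, 33.0 and 24.3 FPKM with BARD1 siRNA. The libraries numbered 4 were lowest in both groups, and control library 4 lay below all of the BARD1 siRNA libraries numbered 1 to 3 (log2 fold change -0.24, SE 0.13). With the block the log2 fold changes of AGPAT1 and AGPAT5 were -0.27 (SE 0.09) and -0.25 (SE 0.06), and both were called.

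The later steps were represented by LPIN1, for a phosphatidate phosphatase that also acts as a transcriptional coactivator, and by DGAT1. LPIN1 (ENSG00000134324, GRCh37 chromosome 2, 11817721 to 11967535) was at 30.3, 30.6, 30.1 and 32.0 FPKM with control siRNA and 25.8, 27.3, 26.3 and 28.9 FPKM with BARD1 siRNA. The groups did not overlap, and the difference was small and even across the pairs, from -0.23 to -0.15 on the log2 scale (fitted -0.18, SE 0.07, and with the block -0.18, SE 0.05, where it was called). DGAT1 (ENSG00000185000, GRCh37 chromosome 8, 145539954 to 145550573) was at 14.4, 12.8, 12.8 and 19.8 FPKM with control siRNA and 14.2, 14.2, 13.4 and 21.6 FPKM with BARD1 siRNA. The libraries numbered 4 were the highest in both groups and the siRNA groups overlapped (log2 fold change 0.08, SE 0.19).

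**Figure D3:**
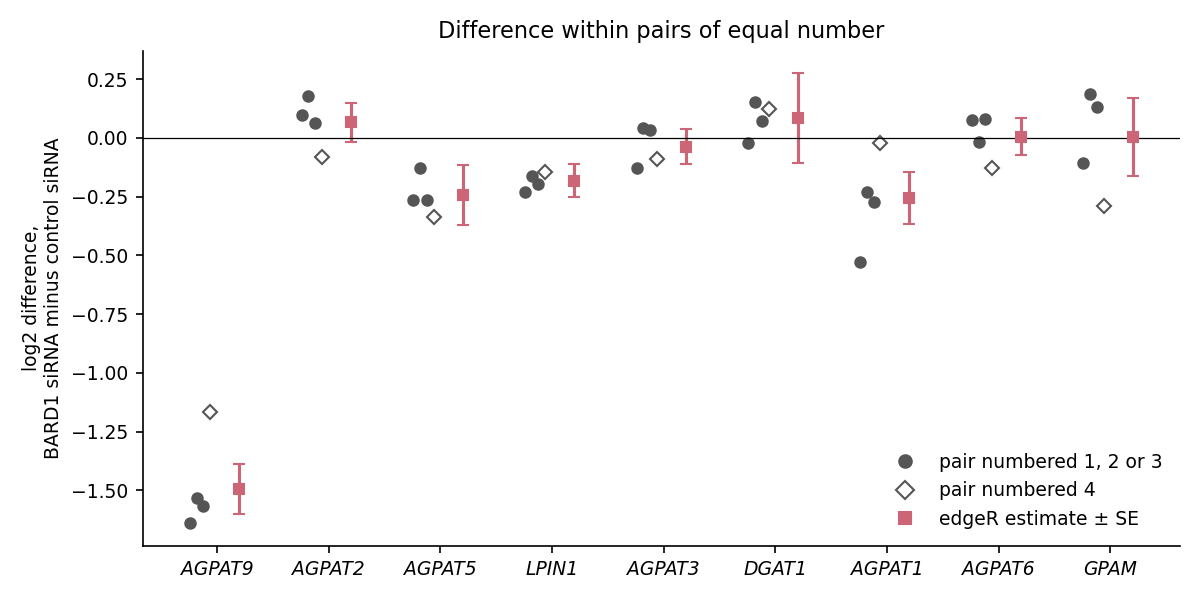
Log2 difference between BARD1 siRNA and control siRNA for each member, from log2(CPM + 0.5) in pairs of libraries with equal number (grey, open diamonds for number 4) and as fitted over all 8 libraries by edgeR with its SE (red squares). AGPAT9 lies at -1.49, and the next lowest fitted value is that of AGPAT1 at -0.26.

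By pair, the log2 difference of AGPAT9 was -1.64, -1.53 and -1.57 for numbers 1 to 3 and -1.17 for number 4, where 44.3% of the control level was left against 31.9% to 34.4% in the others. The smaller difference of that pair came with a lower control value, while BARD1 siRNA library 4 lay within the range of the other libraries of its group. The same pair kept a larger share of its BARD1 transcript than the other pairs did, and a relation to AGPAT9 was not tested. That pair holds 1 library of each siRNA, so the difference of its effect from the others is given as a size only. Without both libraries numbered 4 the log2 fold change of AGPAT9 was -1.59 (SE 0.05).

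With control siRNA the order of levels was AGPAT9, AGPAT2, AGPAT5, LPIN1, AGPAT3, DGAT1, AGPAT1, AGPAT6 and GPAM, from 85.2 to 6.36 FPKM. Among genes next to each other in this order, ranges overlapped between AGPAT5 and LPIN1 and between DGAT1 and AGPAT1. With BARD1 siRNA the order was the same but for AGPAT9, which came after AGPAT2 at 62.4 FPKM and AGPAT5 at 31.2 FPKM. Its range lay within that of AGPAT5, and it just cleared LPIN1, whose highest library was at 28.9 FPKM. The other neighbours in that order whose ranges overlapped were LPIN1 and AGPAT3, and AGPAT1 and AGPAT6. The wide range of AGPAT5, from 24.3 to 35.4 FPKM, also took in those of LPIN1 and AGPAT3.

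The replicate number, which was not used to choose the members, was tested across all genes with the siRNA as a further term. The terms for replicate number were tested jointly, so each adjusted p below covers all the numbers, not number 4 against number 1. Of the 9 members, 3 differed between the numbers, where 32.8% of all genes did, so the share among the members was near the background. DGAT1 was higher in number 4 than in number 1 by 0.53 on the log2 scale (edgeR adjusted p = 0.000778), while AGPAT5 was lower by 0.37 (adjusted p = 0.00329) and GPAM by 0.51 (adjusted p = 0.00801). AGPAT9 did not pass (adjusted p = 0.251), with a difference of -0.18 between numbers 4 and 1. Among numbers 1 to 3 alone, 0 members differed and 71 of 14561 genes did, all by the same test, so the 3 calls rest on the libraries numbered 4.

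Other genes of the pathway were taken from 6 lists that hold no member. Of their 103 genes, 79 had enough reads to be tested. Among these 1 rose and 2 fell, where 1.82% of all genes tested rose and 3.22% fell, so nothing is read from the counts. The median log2 fold change of the 79 was -0.01 against 0.01 over all genes. The 3 called genes belong to the list of phosphatidate phosphatases and diacylglycerol kinases, whose enzymes convert phosphatidic acid and diacylglycerol into each other. DGKE, for a diacylglycerol kinase that prefers arachidonate-containing lipids, was at 6.16, 6.21, 6.74 and 5.03 FPKM with control siRNA and 2.13, 2.32, 2.29 and 3.02 FPKM with BARD1 siRNA. It fell by 1.31 on the log2 scale (SE 0.13, edgeR adjusted p = 0.00113), lower in 4 of 4 pairs, with log2 differences of -1.53 to -1.40 in the pairs numbered 1 to 3 and of -0.73 in the pair numbered 4. DGKD, for another kinase of this family, fell from 23.7 ± 1.12 to 17.0 ± 0.906 FPKM (SD, n = 4 each, log2 fold change -0.48, SE 0.07, adjusted p = 0.00832), with nearly the same size in all 4 pairs. PPAP2B, for a lipid phosphate phosphatase of the cell surface, rose from 4.40, 4.14, 4.24 and 3.40 FPKM to 7.44, 7.15, 7.69 and 4.79 FPKM (log2 fold change 0.74, SE 0.16, adjusted p = 0.0327). The rise of PPAP2B missed the threshold when any single library but BARD1 siRNA library 4 was left out (adjusted p 0.0537 to 0.118). All 3 genes hold a heptamer of the octamer in the 3′ UTR, PPAP2B included, and 0 hold the octamer. Among all tested protein-coding genes with an annotated 3′ UTR, 19.4% held only a heptamer. The longest 3′ UTRs of DGKE, DGKD and PPAP2B had 6776, 2640 and 1804 bases, against a median of 1359 bases over those genes. The part of 3′ UTR length was not tested.

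In the other 5 lists no gene passed without the block (edgeR). An unadjusted p under 0.05 was found for 20 of the 79 genes of all lists and for 18.9% of all genes tested, and the counts by list below are to be read against that share. Of the 11 genes for acyl-CoA and glycerol 3-phosphate supply 4 had an unadjusted p under 0.05, led by ACSL1, for a long-chain acyl-CoA synthetase, with 19.5 ± 2.07 FPKM against 14.6 ± 1.57 FPKM (log2 fold change -0.41, SE 0.11, adjusted p = 0.0608), and the list's median was -0.09. Of 13 other acyltransferases of glycerolipids 5 did, led by AGPAT4, a further family member, at -0.71 (SE 0.20, adjusted p = 0.0802) from a level of at most 1.08 FPKM in any library. The list's median was -0.20. Of 19 genes of the phospholipid branches 2 did, led by PTPMT1, for a mitochondrial phosphatase of cardiolipin synthesis, at -1.57 (SE 0.47, adjusted p = 0.0913) and at most 0.733 FPKM, with a list median of 0.06. PTPMT1 was lower in 3 of 4 pairs, the pair numbered 4 had a log2 difference of 0.05, and the groups overlapped. Of 11 lipid droplet and lipolysis genes 1 did, ABHD6, for a monoacylglycerol lipase, at -0.59 (SE 0.17, adjusted p = 0.0878). The median there was -0.01. Of 12 transcription factor genes of lipid synthesis 4 did, led by CEBPB at 0.48 (SE 0.17, adjusted p = 0.139), with a list median of 0.20.

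With the replicate block 8 of the 79 genes rose and 19 fell, where 11.0% of all genes rose and 12.6% fell. By list, 4 supply genes fell, 1 other acyltransferase gene rose and 7 fell, and 2 phosphatase and kinase genes rose and 4 fell. In the phospholipid branches 1 rose and 2 fell, among lipid droplet and lipolysis genes 1 rose and 1 fell, and among transcription factors 3 rose and 1 fell. ACSL1, AGPAT4, PTPMT1, ABHD6 and CEBPB were each called in that fit (adjusted p 0.00027, 0.00839, 0.0354, 0.0111 and 0.000764), PTPMT1 in spite of the pair numbered 4, which did not share its direction.

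**Figure D4:**
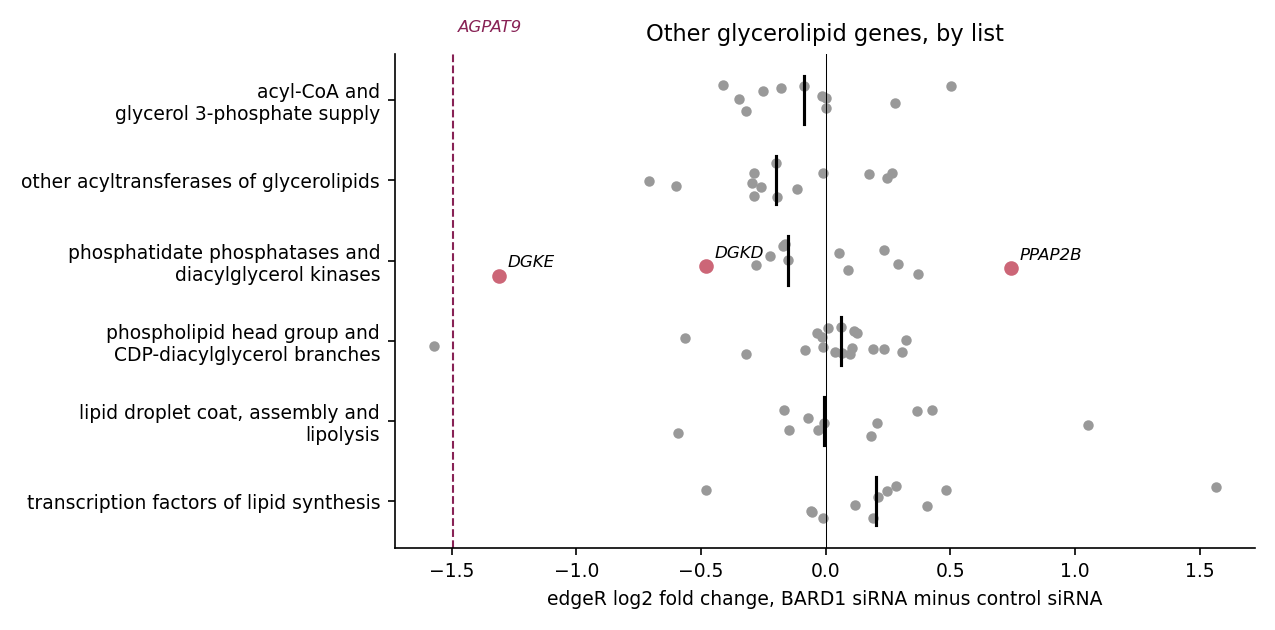
Fitted log2 fold change (BARD1 siRNA minus control siRNA, edgeR) of the 79 tested genes of the 6 other glycerolipid lists. Red points passed the test, black bars are list medians, and the dashed line marks AGPAT9. The only genes past the threshold are DGKE at -1.31, DGKD at -0.48 and PPAP2B at 0.74.

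The genes whose level over the 8 libraries was most like that of AGPAT9 were sought among 9710 protein-coding genes with a mean of at least 5 CPM, by the Pearson correlation of log2(CPM + 0.5). They were ZMPSTE24 (r = 0.998), which encodes a protease that processes prelamin A, CNOT6 (0.998), of the mRNA deadenylation complex, PICALM (0.997), of clathrin-mediated endocytosis, CCDC86 (0.997) and SLC39A6 (0.997), a zinc transporter gene. The 8 points are the same libraries that make up the siRNA groups, and 458 genes had r above 0.9. The 5 were chosen for following AGPAT9, so their fall with BARD1 siRNA and their low control library 4 are a description only. The log2 fold changes were -1.13 in ZMPSTE24, -1.02 in CNOT6, -0.77 in PICALM, -1.77 in CCDC86 and -1.09 in SLC39A6. Control library 4 was the lowest of its group in each. ZMPSTE24, CNOT6, PICALM and SLC39A6 hold the octamer ATACAGAA in an annotated 3′ UTR and CCDC86 holds a heptamer. The octamer was picked out in genes lower with BARD1 siRNA, and these 5 follow a gene that fell, so nothing is read from this. Of 455 protein-coding genes with an annotated 3′ UTR that were called lower, 136 held the octamer and 149 only a heptamer. Of the other members LPIN1 (r = 0.828), AGPAT1 (0.720) and AGPAT5 (0.650) were most like AGPAT9, and AGPAT6 (0.00641) showed no relation.

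**Figure D5:**
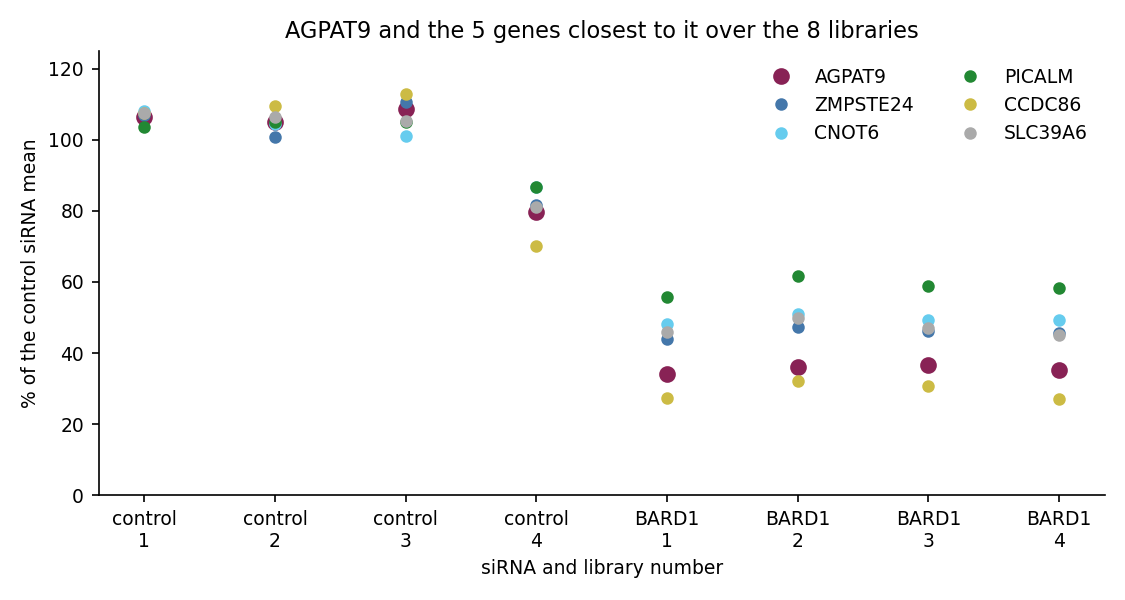
AGPAT9 and the 5 protein-coding genes closest to it, as a percentage of each gene's own control siRNA mean, in each library. All 6 genes are lower in the control library numbered 4 than in the other controls and lie well below all controls in the 4 BARD1 siRNA libraries. The 5 were chosen for following AGPAT9 over these libraries.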

How the data were processed

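Polyadenylated RNA of 8 libraries was counted per gene. The submitters' processing notes name GRCh37 (hg19), fastp, featureCounts and, with version 2.0.5, HISAT2; which annotation release was counted is not stated there. The authors deposited whole-number read counts and FPKM values, which equal the count per listed gene length and column total, and their own log2 fold changes and p-values, made with a tool that the labels do not name. The 8 further per-sample columns were not used, and 22217 rows naming no gene held 0 reads.

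Counts of the 25945 genes were filtered with filterByExpr, scaled by TMM and tested with edgeR (version 4.0.16, R 4.3.3) by the two-sided quasi-likelihood F-test and called at a Benjamini-Hochberg adjusted p under 0.05, 4 BARD1 siRNA against 4 control siRNA libraries without further terms. SE is that implied by the F statistic. The 3 terms for replicate number were tested jointly beside siRNA. The procedure was tested on counts simulated from the fit with the block, so an effect of replicate number was built into them. Without the block it recovered 10.4% of 1.5-fold, 58.2% of 2-fold and 77.3% of 4-fold changes. With the block these shares were 59.7%, 80.6% and 93.9%. Genes not called can therefore still differ. As the replicate effect was built in, the shares cannot show which fit suits the data better, nor whether the pairs are real. Total counts ran from 24458665 to 36212716, so 3 counts were worth 0.0828 to 0.123 CPM, counting error only.

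Libraries of equal number deviated together from their group means (correlations 0.498, 0.495, 0.601 and 0.857 for numbers 1 to 4 over 10144 genes). These means include the libraries numbered 4, which stood apart, and libraries of unequal number were not compared. The correlations therefore cannot show that the other numbers match between the groups. Replicate number was called in 71 of 14561 genes when the libraries numbered 4 were left out (edgeR). The numbers, which come from the labels, were taken as pairs, and the pair and block results rest on this choice. Members and lists were chosen with earlier results of these data known. Named genes were the members, BARD1, list genes past the threshold (at most 5 a list, else the 1 with the smallest p) and the 5 genes most correlated with AGPAT9. Alternatives were a replicate block, DESeq2 (version 1.42.0), other scalings, no filter, each library left out and both libraries numbered 4 left out. No set test was run.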

Additional observations from a re-analysis of the deposited data

Results flagged for a closer look

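In 46 groups of 4 libraries over the named genes, 8 had 1 library set apart from its group by Dixon's gap ratio. Chance picks out about 1 in 20 independent groups, but these groups share libraries and the 5 genes most like AGPAT9 were chosen for following it. Without those 5 genes, 5 of 36 groups were picked out. The library was numbered 4 in all 8. Control siRNA library 4 was low for AGPAT9, at 67.9 FPKM against 89.5 to 92.6 in the others, for AGPAT5, at 30.8 FPKM against 38.7 to 39.7, and for BARD1 itself, at 3.78 FPKM against 4.88 to 5.08. It was also low for 3 of the genes most like AGPAT9, namely PICALM at 37.1 FPKM against 44.4 to 44.9, CCDC86 at 24.3 FPKM against 37.3 to 39.1 and SLC39A6 at 32.4 FPKM against 42.1 to 43.0. BARD1 siRNA library 4 was high for DGAT1, at 21.6 FPKM against 13.4 to 14.2, and for PTPMT1, at 0.373 FPKM against 0.123 to 0.137. The part of what sets these libraries apart in the differences was not tested.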

How the results depend on the processing

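The log2 fold change of AGPAT9 stayed between -1.59 and -1.45 under all alternatives run, and AGPAT9 was called lower in each. With the replicate block 1595 genes were higher and 1835 lower (265 and 468 without it), 8 and 19 genes of the other lists (1 and 2), and 4 members were lower (1). Without both libraries numbered 4 these counts were 2185 and 2243, 13 and 24, and 4, and 0 members differed by replicate number (3). With DESeq2, 560 genes were higher and 704 lower, and 6 list genes were lower. Under upper-quartile scaling, which moved the median of all genes by 0.03, 413 genes were called higher, 46.8% of all calls against 36.2%, and 4 list genes lower. Leaving out each library in turn, 38 to 1243 genes were higher and 155 to 1263 lower, 0 to 6 list genes were higher and 2 to 13 lower, and 1 to 3 members were lower. Without any 1 library numbered 1 to 3 of either group, 38 to 54 genes were higher and 155 to 190 lower. Without BARD1 siRNA library 4 these were 1243 and 1263, and without control library 4 316 and 548. The cause of these shifts was not tested. Of single genes, DGKE and DGKD kept their calls throughout and PPAP2B lost its call in 7 of the 8 cases of a library left out. DGKD passed only narrowly without any 1 library numbered 1 to 3 of either group (edgeR adjusted p 0.0323 to 0.0471). 3 counts per library limit the rarest genes.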
